A study of Homo sapiens with 24 samples.

Results

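A set of 10 genes of the WNT pathway was followed across 24 RNA sequencing libraries: the ligand WNT5A, the receptors FZD4 and LGR5, the receptor ubiquitin ligases RNF43 and ZNRF3, the secreted antagonist DKK1, the scaffold AXIN2, the nuclear factors TCF7L2 and LEF1, and the corepressor TLE1. They were taken by gene symbol from tables of 26346 genes, and all 10 were listed for every library, some of them with no reads. VCaP cells, a prostate cancer line known for its TMPRSS2-ERG fusion, carried an shRNA named shCt (control), shERG or shARID1A, with 1 construct named per target and puromycin selection for 8 days. LNCaP cells, a prostate cancer line with a rearranged ETV1 gene of its own, carried an empty vector (Empty), ERG or ETV1 under blasticidin selection for 4 days. SW13 cells, an adrenal carcinoma line known to lack the BRG1 protein, carried ERG or an empty vector beside GFP, BRG1 or BRG1-K785R, the ATPase mutant of BRG1, under both drugs for 2 days. The SW13 control is GFP in the sample titles but luciferase in the protocol, and GFP is kept here. All constructs were delivered by lentivirus, so every control also carried a vector, and each of the 12 groups held 2 libraries from independent infections.

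In the canonical WNT pathway, secreted ligands engage Frizzled receptors together with LRP5 or LRP6, the destruction complex built on AXIN proteins stops degrading beta-catenin, and beta-catenin joins TCF and LEF proteins on DNA in place of TLE corepressors. RNF43 and ZNRF3 remove Frizzled receptors from the cell surface, and R-spondins bound to LGR receptors block that removal. AXIN2, LGR5, RNF43, ZNRF3 and LEF1 are themselves known targets of the pathway in several tissues, and WNT5A is best known as a ligand of branches that do not use beta-catenin.

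Libraries held 19754265 to 41996681 counted reads. Levels are CPM, counted reads scaled to a common library total, and levels of different genes are compared only as RPKM, which also divides by gene length. Log2 changes were fitted with TMM scaling and carry an approximate standard error (SE). Changes were tested with the quasi-likelihood F test of edgeR (two-sided), p values were adjusted by Benjamini-Hochberg over all genes of the line that passed a filter, and a gene was called at an adjusted p of 0.05. Replicates were close, and large shares of all genes were called, so counts of members are set beside that share and beside the share also changed by at least 2-fold. Library totals in place of TMM scaling moved the median log2 change of all genes by 0.18 for shERG against shCt, -0.12 for shARID1A against shERG, 0.18 for ERG beside BRG1-K785R, 0.13 for BRG1 against GFP, 0.21 for BRG1 against BRG1-K785R and -0.23 for the difference of ERG effects between those constructs.

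The targeted genes followed the labels. In VCaP, ERG stood at 330 and 354 CPM with shCt, 81.0 and 87.9 CPM with shERG and 242 and 238 CPM with shARID1A, and ARID1A fell from 251 and 250 to 71.9 and 75.3 CPM with its shRNA. In LNCaP Empty libraries ETV1 already stood at 568 and 590 CPM, against 3749 and 3626 CPM with the ETV1 construct, and ERG rose from 0.275 and 0.619 to 996 and 958 CPM with its own. SMARCA4, which encodes BRG1, stood at 25.5 to 31.4 CPM in SW13 GFP Empty libraries. It stood at 2150 and 2201 CPM in BRG1 Empty, 1959 and 2264 in BRG1 ERG, 2180 and 2039 in BRG1-K785R Empty and 1417 and 1430 in BRG1-K785R ERG, so the mutant was lower where ERG was present. All 7 prostate luminal markers were above 1 CPM in VCaP and LNCaP. Their summed level was 12482 to 13114 CPM with shCt, 8489 to 8828 with shERG and 9287 to 9523 with shARID1A. Of 6 adrenal cortex markers, CYP21A2 alone was above 1 CPM in SW13, and NR5A1, STAR, CYP11A1, CYP17A1 and HSD3B2 were at or near 0 there. These 6 summed to 11.7 to 22.9 CPM in SW13, below the 34.8 to 58.3 CPM in VCaP and 44.5 to 65.5 CPM in LNCaP. In bulk RNA, a lower share of cells with a transcript and less transcript per cell cannot be told apart.

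Promoter windows from RefSeq (GRCh38.p14, 250 bases before to 50 after a gene start) matched 7 of the 10 genes: WNT5A, FZD4, RNF43, DKK1, TCF7L2, LEF1 and TLE1. No window was found under the symbols LGR5, ZNRF3 or AXIN2. The 3 shown were picked with their values known, since the account of ERG returns to them: FZD4 in all 3 lines, DKK1 in SW13 with BRG1, and TLE1 in LNCaP. Each line gives the 250 bases before the start, 5′ to 3′ on the gene's strand, with capitals for GGAA, the core of the ETS sequence bound by ERG and ETV1, and for CTTTGAA, a form of the TCF/LEF sequence, on either strand.
FZD4, chr11:86955396-86955645, minus strand: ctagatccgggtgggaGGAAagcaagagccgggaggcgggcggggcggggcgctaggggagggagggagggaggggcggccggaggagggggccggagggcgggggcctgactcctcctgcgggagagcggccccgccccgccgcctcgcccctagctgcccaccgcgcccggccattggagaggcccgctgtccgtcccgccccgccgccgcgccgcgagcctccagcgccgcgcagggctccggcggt
DKK1, chr10:52314031-52314280, plus strand: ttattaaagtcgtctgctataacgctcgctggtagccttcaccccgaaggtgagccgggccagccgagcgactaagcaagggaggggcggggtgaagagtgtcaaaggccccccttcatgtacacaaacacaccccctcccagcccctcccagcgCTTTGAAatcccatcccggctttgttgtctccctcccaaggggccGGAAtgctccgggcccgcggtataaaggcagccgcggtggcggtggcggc
TLE1, chr9:81689548-81689797, minus strand: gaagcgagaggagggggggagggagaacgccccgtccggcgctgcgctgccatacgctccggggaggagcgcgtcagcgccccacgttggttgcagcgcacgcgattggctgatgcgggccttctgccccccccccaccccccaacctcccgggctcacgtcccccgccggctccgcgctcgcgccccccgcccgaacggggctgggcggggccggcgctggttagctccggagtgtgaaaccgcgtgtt
The FZD4 window held 1 GGAA, the DKK1 window held 1 GGAA and 1 CTTTGAA, and the TLE1 window held no match to either. On either strand, GGAA was in 95.5% of all 35116 windows, CTTTGAA in 4.43% and CTTTGAT in 2.62%. The longer ETS matches, which contain GGAA, were rarer, with CCGGAAG in 10.3% and CAGGAAG in 12.7% of windows. CAGGAAG was found once in 1 of 2 RNF43 windows and once in 1 of 3 TCF7L2 windows, and neither CCGGAAG nor CTTTGAT was found in a window of the 7 genes. These matches describe letters in short windows and no binding was measured here.

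**Figure D1:**
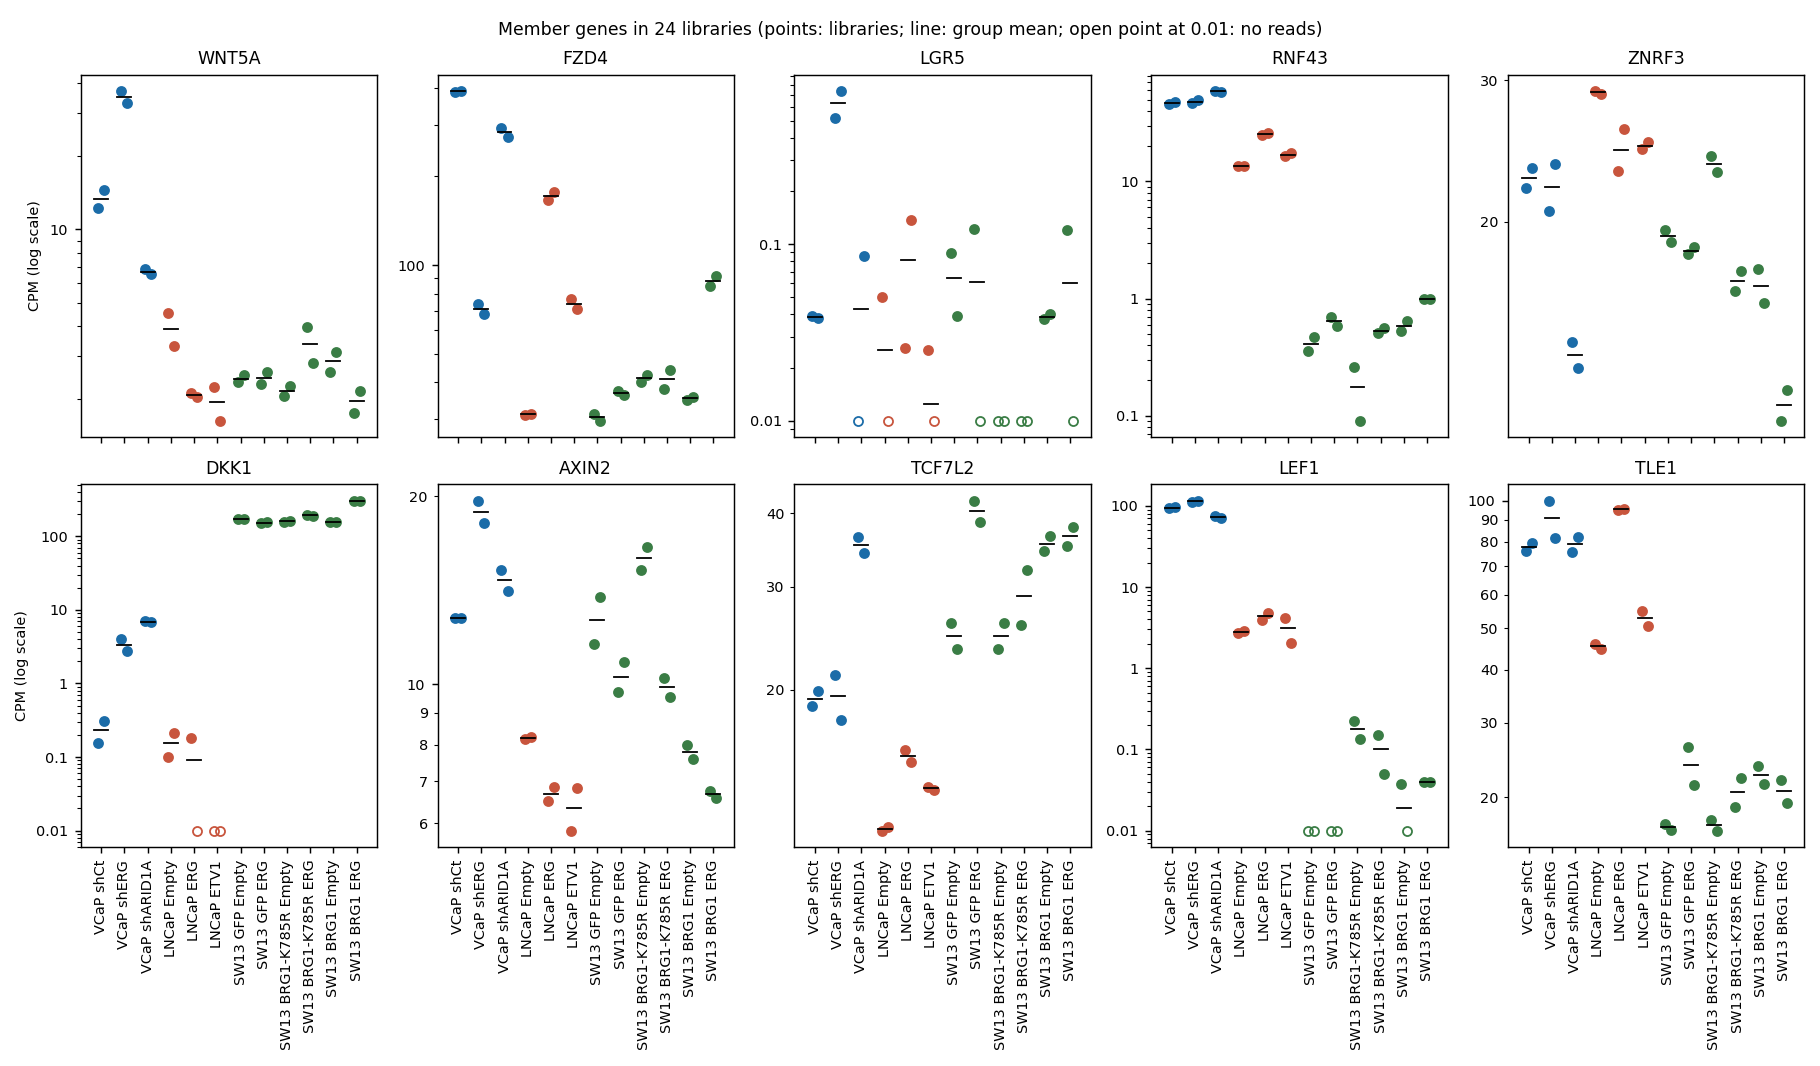
Level of each of the 10 genes in CPM (log axis) in 24 libraries of VCaP (blue), LNCaP (red) and SW13 (green); points are libraries, lines are group means, and open points mark libraries with no reads. FZD4 spans 29.5 to 390 CPM and is lowest within VCaP in the shERG libraries, while DKK1 is 152 CPM or more in every SW13 library and at most 7.02 CPM elsewhere.

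By RPKM, the gene with the highest level among the 10 differed between groups of VCaP and of LNCaP. FZD4 led in VCaP shCt with a mean of 52.6 RPKM and in shARID1A with 38.2 RPKM. In VCaP shERG it stood at 9.61 RPKM, below LEF1 with 27.5 and TLE1 with 21.9 RPKM. TLE1 led in LNCaP Empty with 10.9 RPKM, against 4.20 for FZD4, and in LNCaP ETV1 with 12.7 RPKM, against 9.98 for FZD4. In LNCaP ERG these genes were level, with 23.3 ± 1.1 RPKM for FZD4 and 22.9 ± 0.024 RPKM for TLE1 (mean ± SD, n = 2). DKK1 led in all 6 SW13 groups, with a median of 91.8 RPKM over 12 libraries. TCF7L2 came next in 5 of them, and FZD4 in BRG1 ERG, with 11.9 RPKM against 8.44 RPKM for TCF7L2. The median of LEF1 was 23.0 RPKM in VCaP and 0.825 RPKM in LNCaP. LGR5, the R-spondin receptor that marks intestinal stem cells, had at most 19 reads in any library. The transcript of LEF1 had at most 6 reads in SW13 libraries and none in the 4 libraries with GFP. RNF43 had 2 to 25 reads in SW13, against 1167 to 1693 in VCaP. ZNRF3 was the most even of the 10 between lines, with median RPKM of 3.15 in VCaP, 3.78 in LNCaP and 2.63 in SW13. Lines were not tested against each other, since each was cultured, selected and fitted separately.

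The order of groups differed by gene. For FZD4 the highest group was VCaP shCt, followed by VCaP shARID1A, LNCaP ERG and SW13 BRG1 ERG, with no overlap between neighbours. Below these, LNCaP ETV1 overlapped VCaP shERG, SW13 BRG1-K785R Empty overlapped BRG1-K785R ERG, and LNCaP Empty overlapped SW13 GFP Empty at the bottom. For DKK1, SW13 BRG1 ERG was highest, followed by BRG1-K785R ERG, and the other 4 SW13 groups lay between 152 and 171 CPM. For WNT5A the 3 VCaP groups were the highest and did not overlap, and most neighbours among the other 9 groups overlapped. For TLE1, LNCaP ERG overlapped VCaP shERG at the top and the 6 SW13 groups were the lowest.

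The knockdown of ERG in VCaP asks which transcripts depend on the fusion-driven factor. FZD4 fell, WNT5A, DKK1, LGR5 and AXIN2 rose, and the nuclear factors and TLE1 did not pass the test. Of the 10 members, 4 rose, 3 fell and 3 were not called, beside 66.7% of all genes called. With library totals 6 rose and 1 fell, and the share of all calls that were higher went from 43.9% to 60.5%. Changes of at least 2-fold were called for 4 members, beside 17.3% of all genes. The members' median log2 change was 0.06, and that of all genes -0.05.

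WNT5A stood at 12.3 and 14.5 CPM with shCt and at 37.1 and 33.2 CPM with shERG. Every shERG library was above every control, with a log2 change of 1.21 ± 0.09 (adjusted p = 1.0e-10). WNT5A moved with a list of 6 fibroblast markers, which summed to 29.0 to 29.5 CPM with shCt, 80.2 to 81.3 with shERG and 10.0 to 12.8 with shARID1A. Within that list COL1A2 had a mean of 0 CPM in these groups, DCN, PDGFRB and VIM were under 1 CPM, and LUM and COL1A1 made up most of the sum. The part of other cells in the WNT5A change was not tested.

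FZD4, a receptor for WNT ligands and for norrin, stood at 388 and 390 CPM with shCt and at 73.7 and 68.4 CPM with shERG. The shERG libraries were far below the controls, with a log2 change of -2.64 ± 0.05 (adjusted p = 2.7e-20). LGR5 had 1 read in each shCt library and 16 and 19 reads in the shERG libraries. Scaled to library totals that was a ratio of 16.0, with a 95% counting interval of 4.1 to 137. It was called (adjusted p = 0.00044), but the level reached only 0.519 and 0.736 CPM.

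The ligases that clear Frizzleds changed little. RNF43 stood at 45.7 and 47.9 CPM with shCt and 46.5 and 49.2 CPM with shERG, and its libraries interleaved. Its call (log2 change -0.15 ± 0.06, adjusted p = 0.032) was lost with library totals, where the change was 0.03, and under 6 other settings. ZNRF3 stood at 22.0 and 23.3 CPM with shCt and 20.6 and 23.6 CPM with shERG, which also overlapped. Its call (-0.22 ± 0.09, adjusted p = 0.028) was lost under 7 settings, among them DESeq2 (adjusted p = 0.22), RLE scaling and library totals, and without shERG replicate 1 the change was -0.07.

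DKK1, which blocks the co-receptors LRP5 and LRP6, had 4 and 8 reads with shCt and 122 and 72 reads with shERG. Its level rose from 0.157 and 0.306 CPM to 3.96 and 2.79 CPM, with no overlap and a log2 change of 3.67 ± 0.35 (adjusted p = 4.6e-09). AXIN2, scaffold of the destruction complex and a widely used readout of beta-catenin activity, rose from 12.8 CPM in both shCt libraries to 19.7 and 18.1 CPM. Its log2 change was 0.38 ± 0.09 (adjusted p = 0.00097). Among the nuclear factors, LEF1 stood at 94.5 and 95.6 CPM with shCt and 112 and 115 CPM with shERG. The LEF1 libraries did not overlap, yet its log2 change was 0.07 ± 0.05 (adjusted p = 0.21), and it was called with library totals, with no filter, with only the compared groups and without shERG replicate 1. TCF7L2 (-0.17 ± 0.09, adjusted p = 0.10) and TLE1 (0.04 ± 0.07, adjusted p = 0.60) were not called. TCF7L2 was called without shERG replicate 1, and TLE1 with library totals and without shERG replicate 2.

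Of 68 other pathway genes tested in VCaP, 19 rose and 25 fell with shERG, and with library totals 29 rose and 16 fell. The called share with TMM scaling was 64.7% of the 68, beside 66.7% of all genes. It was 80.0% for the Frizzled receptors and co-receptors among them. Of 15 Frizzled receptors and co-receptors tested, 4 rose and 8 fell, against 7 and 7 with library totals, and 2 of the risers were FZD6, from 23.1 ± 0.54 to 70.6 ± 2.3 CPM (mean ± SD, n = 2), and FZD2, from 3.19 ± 0.080 to 10.6 ± 0.42 CPM. FZD8 fell from 17.8 ± 1.0 to 8.81 ± 0.30 CPM. The ligand WNT2 fell from 75.7 ± 3.3 to 29.8 ± 0.85 CPM and SOX9, a transcription factor and target gene, from 36.4 ± 1.3 to 14.6 ± 0.55 CPM. The median log2 change of the 68 genes was -0.05, the same as that of all genes to 2 decimals.

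The knockdown of ARID1A, a subunit of the BAF chromatin remodeler, gave another combination. DKK1, TCF7L2 and RNF43 rose, and FZD4, WNT5A, ZNRF3 and LEF1 fell. With 3 members up, 4 down and 3 not called, the call share stood beside 66.1% of all genes. Only DKK1 and WNT5A changed by at least 2-fold, beside 18.2% of all genes. Both VCaP knockdowns were compared with the same shCt libraries.

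WNT5A was 6.88 and 6.53 CPM with shARID1A, under both shCt libraries, a log2 change of -1.06 ± 0.11 (adjusted p = 3.2e-08). Its change was therefore positive with shERG and negative with shARID1A, and the shARID1A libraries were also the lower ones when compared directly (-2.27 ± 0.10, adjusted p = 6.7e-15). FZD4 was 293 and 272 CPM with shARID1A, below shCt (log2 change -0.53 ± 0.05, adjusted p = 2.2e-09) but well above shERG (2.11 ± 0.05, adjusted p = 2.6e-19). ERG itself was lower with shARID1A than with shCt, as given above, and its part in the FZD4 change was not tested. LGR5 had 0 and 2 reads with shARID1A, and was not called against the 1 read in each control (adjusted p = 0.97).

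DKK1 rose furthest of the 10, to 7.02 and 6.83 CPM with shARID1A (201 and 159 reads). Its log2 change against shCt was 4.81 ± 0.31 (adjusted p = 5.1e-12), and shARID1A exceeded shERG by 1.14 ± 0.18 (adjusted p = 6.4e-06). ZNRF3 dropped to 14.2 and 13.1 CPM, with a log2 change of -0.79 ± 0.09 (adjusted p = 1.2e-07). RNF43 went the other way, to 59.1 and 58.0 CPM (0.26 ± 0.06, adjusted p = 0.00067), so these related ligases moved in opposite directions. AXIN2 stood at 15.2 and 14.1 CPM, above both shCt libraries, but its change of 0.14 ± 0.10 was not called (adjusted p = 0.21).

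TCF7L2 and LEF1, which bind the same DNA sequence, also parted. TCF7L2 rose to 36.5 and 34.2 CPM with shARID1A, with a log2 change of 0.81 ± 0.08 (adjusted p = 1.8e-08). LEF1 fell to 75.4 and 70.5 CPM, with a log2 change of -0.45 ± 0.05 (adjusted p = 1.4e-07). TLE1 stood at 75.6 and 82.3 CPM, overlapped shCt and was not called (-0.05 ± 0.07, adjusted p = 0.54).

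Set directly against shERG, 4 members were higher with shARID1A, 5 were lower and TLE1 was not called, beside 73.0% of all genes called. At 2-fold 4 members were called (WNT5A, FZD4, LGR5 and DKK1), beside 24.6% of all genes. TCF7L2 differed by 0.97 ± 0.08 (adjusted p = 4.8e-10) and LEF1 by -0.52 ± 0.05 (adjusted p = 7.3e-09). RNF43 was higher by 0.41 ± 0.06 (adjusted p = 2.1e-06) and ZNRF3 lower by -0.57 ± 0.09 (adjusted p = 9.4e-06). AXIN2 was lower by -0.25 ± 0.09 (adjusted p = 0.019), a call lost with DESeq2 (adjusted p = 0.088), without shERG replicate 1 and without shARID1A replicate 2. TLE1 was called with library totals, with no filter, and without shERG replicate 2 or shARID1A replicate 2.

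Among the other pathway genes 33 of 68 rose and 16 fell with shARID1A against shCt, with a median log2 change of 0.23 beside 0.01 for all genes. The called share was 72.1%, beside 66.1% of all genes, and against shERG it was 72.1%, beside 73.0%. WLS, which carries WNT ligands to the cell surface, rose from 66.6 ± 0.93 to 139 ± 11 CPM. LGR4, another R-spondin receptor, rose from 311 ± 1.3 to 549 ± 17 CPM, and BCL9L, a partner of beta-catenin, from 71.8 ± 2.5 to 134 ± 3.7 CPM. The ligands WNT2 and WNT10B fell, to 26.1 ± 1.0 and 0.775 ± 0.058 CPM. Of the 10 destruction complex and transducer genes tested, 7 rose and 1 fell, beside 66.1% of all genes called. Against shERG, 30 of the 68 were higher with shARID1A and 19 lower, and with library totals 25 were higher and 27 lower. Among them were the ligand WNT5B, at 18.1 ± 1.0 against 5.05 ± 0.57 CPM, and WNT7B, at 20.4 ± 0.099 against 39.3 ± 0.93 CPM.

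In LNCaP the question was which transcripts change when ERG is added to cells with little of it, or when ETV1 is raised. FZD4, RNF43, TCF7L2 and TLE1 rose with either factor, and WNT5A fell. With ERG, 4 of the 8 members tested rose and 2 fell, beside 29.7% of all genes called, and FZD4 and TLE1 changed by at least 2-fold, beside 5.27% of all genes. With ETV1, 4 rose and WNT5A fell, beside 26.1%, and FZD4 alone reached 2-fold, beside 4.39%. Without Empty replicate 1 the count of members called with ETV1 was 1, and without any other of the 4 libraries it was 3. LGR5 and DKK1 had too few reads to be tested. Both factors were compared with the same Empty libraries.

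FZD4 stood at 31.0 and 31.1 CPM in Empty, 166 and 178 CPM with ERG and 76.9 and 70.6 CPM with ETV1, in 3 ranges that did not overlap. Its log2 change was 2.48 ± 0.06 with ERG (adjusted p = 8.5e-08) and 1.28 ± 0.06 with ETV1 (adjusted p = 2.8e-06). The difference between ETV1 and ERG was itself called, at -1.19 ± 0.06 (adjusted p = 6.4e-06). FZD4 thus fell when ERG was depleted in VCaP and rose when it was added in LNCaP, and all of these calls held under every setting run.

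TLE1, the corepressor, stood at 46.1 and 44.8 CPM in Empty and 95.2 and 95.4 CPM with ERG, a log2 change of 1.08 ± 0.06 (adjusted p = 4.0e-06). With ETV1 it stood at 54.9 and 50.7 CPM, a change of 0.25 ± 0.06 (adjusted p = 0.0099) that was lost without any of Empty replicate 1 (adjusted p = 0.060), Empty replicate 2 or ETV1 replicate 1. In VCaP, by contrast, TLE1 was not called with shERG. RNF43 rose from 13.6 and 13.5 CPM to 24.9 and 25.8 CPM with ERG (0.91 ± 0.07, adjusted p = 3.2e-05). With ETV1 it reached 16.6 and 17.4 CPM (0.36 ± 0.07, adjusted p = 0.0056), and this call was lost without Empty replicate 1 (adjusted p = 0.056).

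WNT5A fell from 4.51 and 3.31 CPM in Empty to 2.12 and 2.04 CPM with ERG and 2.25 and 1.63 CPM with ETV1. The changes were -0.90 ± 0.23 (adjusted p = 0.017) and -0.97 ± 0.22 (adjusted p = 0.013). Without Empty replicate 1 neither was called, at -0.66 (adjusted p = 0.12) with ERG and -0.73 (adjusted p = 0.10) with ETV1. The ERG call was also lost without either ERG library, and the ETV1 call without ETV1 replicate 2. A list of 8 genes known from mesenchymal and other cells (S100A6, ANXA2, LGALS1, TGFBI, TGM2, AKR1B1, IGFBP4 and TPM2) was picked because earlier results showed it uneven in these Empty libraries. It summed to 78.9 to 109 CPM in Empty, against 5.69 to 6.17 CPM with ERG and 3.54 to 4.26 CPM with ETV1. All 8 were above 1 CPM in Empty. The 6 fibroblast markers, by contrast, summed to 104 to 160 CPM in Empty, 145 to 165 CPM with ERG and 106 to 109 CPM with ETV1, most of it VIM and COL1A1. The part of either list in the WNT5A change was not tested.

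The remaining LNCaP members moved less. TCF7L2 rose from 11.5 and 11.7 CPM to 15.8 and 15.1 CPM with ERG (0.42 ± 0.08, adjusted p = 0.0039). With ETV1 TCF7L2 stood at 13.7 and 13.5 CPM (0.26 ± 0.08, adjusted p = 0.034), a call lost with DESeq2 (adjusted p = 0.15), with library totals, with the replicate block (adjusted p = 0.065) and without any 1 library. ZNRF3 stood at 29.1 and 28.9 CPM in Empty and 23.1 and 26.1 CPM with ERG (-0.23 ± 0.07, adjusted p = 0.042), a call lost with DESeq2 (adjusted p = 0.093), the replicate block (adjusted p = 0.063), only the compared groups, and without ERG replicate 1 or either Empty library. AXIN2, at 8.16 and 8.24 CPM in Empty, was lower in both ERG libraries (6.51 and 6.85 CPM) and both ETV1 libraries (5.83 and 6.83 CPM). Its changes of -0.29 ± 0.12 (adjusted p = 0.092) and -0.34 ± 0.11 (adjusted p = 0.059) were not called, apart from that with ETV1 on library totals (adjusted p = 0.042). LEF1 stood at 2.75 and 2.83 CPM in Empty, 3.98 and 4.77 CPM with ERG and 4.18 and 2.04 CPM with ETV1. LEF1 was called with ERG only when the ETV1 libraries were left out of the fit (adjusted p = 0.025).

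ETV1 and ERG were also compared directly. FZD4, RNF43 (-0.55 ± 0.07, adjusted p = 0.0011) and TLE1 (-0.82 ± 0.05, adjusted p = 3.6e-05) were lower with ETV1, and the other 5 members tested were not called. These 3 of 8 stood beside 14.4% of all genes called, and FZD4 alone reached 2-fold, beside 2.35%. WNT5A differed by -0.07, with an approximate interval of -0.54 to 0.39, and TCF7L2 by -0.16. The approximate TCF7L2 interval of -0.31 to -0.01 used a normal multiplier, which makes it too narrow for groups of 2 libraries. No difference is read from it. Without ETV1 replicate 1, LEF1 was called lower with ETV1 (-1.06, adjusted p = 0.030).

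Of 61 other pathway genes tested in LNCaP, 10 rose and 13 fell with ERG, and 12 rose and 13 fell with ETV1. The called shares were 37.7% and 41.0%, beside 29.7% and 26.1% of all genes. With library totals the ETV1 counts were 8 and 13, and the share of all ETV1 calls that were higher went from 50.5% to 40.0%. SOX9 rose from 4.67 ± 1.0 to 17.8 ± 1.8 CPM with ERG and 19.9 ± 0.56 CPM with ETV1. TLE4, a corepressor related to TLE1, stood at 1.39 ± 0.21 CPM in Empty, 2.10 ± 0.015 with ERG and 27.5 ± 2.7 with ETV1. APCDD1, a surface antagonist of the pathway, rose from 2.06 ± 0.63 to 8.33 ± 0.46 CPM with ERG and stood at 2.32 ± 0.51 with ETV1. LGR4 fell from 54.5 ± 0.77 to 30.1 ± 0.081 CPM with ERG and 29.4 ± 1.0 with ETV1. DKK3 and CD44 also fell with ERG, from 4.52 ± 1.6 and 7.36 ± 5.2 CPM in Empty libraries that differed from each other. With ETV1, 7 of the 61 genes were higher than with ERG and 5 lower, a called share of 19.7% beside 14.4% of all genes. Library totals gave 5 and 9, and the share of all calls that were higher went from 45.2% to 35.2%.

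**Figure D2:**
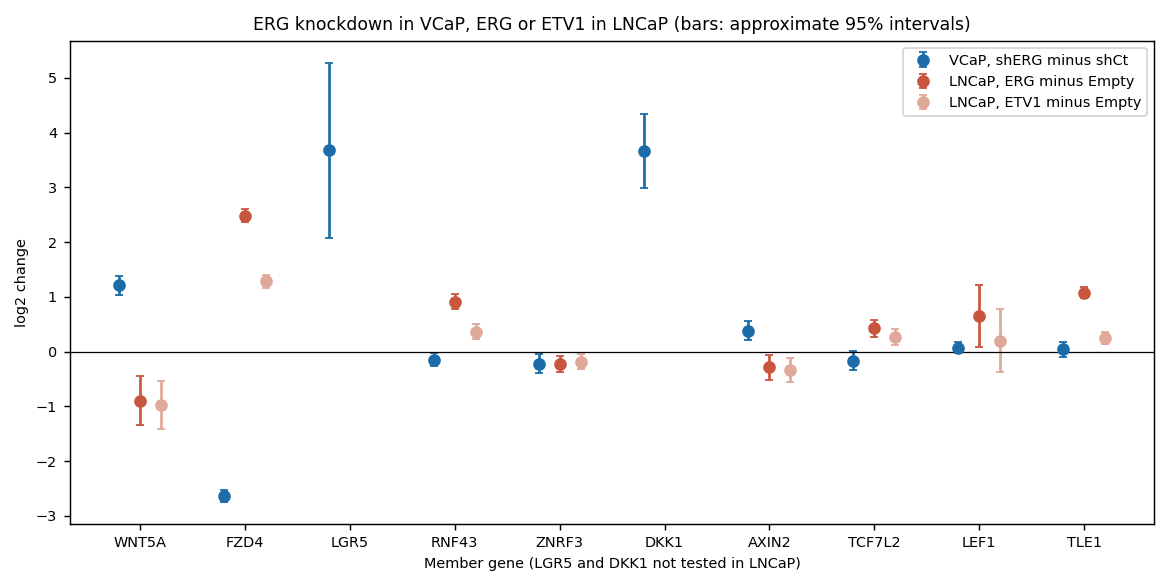
Log2 changes (vertical axis) of the 10 genes for ERG knockdown in VCaP and for ERG or ETV1 in LNCaP; points are edgeR estimates and bars approximate 95% intervals. FZD4 is at -2.64 in VCaP and at 2.48 and 1.28 in LNCaP, and WNT5A has the opposite signs, 1.21 and then -0.90 and -0.97.

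In SW13 the question was whether ERG acts differently when functional BRG1 is present. FZD4 and DKK1 rose with ERG beside BRG1, and each of these changes differed from that beside GFP and from that beside the ATPase mutant. TCF7L2 and TLE1 rose with ERG beside GFP, and AXIN2 fell beside GFP and beside BRG1-K785R. LGR5 and LEF1 had too few reads to be tested.

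Beside GFP, 3 of 8 members rose and 2 fell with ERG, beside 26.0% of all genes called. No member changed by 2-fold, beside 1.59% of all genes. With library totals the share of all calls that were higher went from 48.3% to 62.0%. The 5 calls became 2 without GFP Empty replicate 2, 1 without ERG replicate 1, 2 without ERG replicate 2, 3 with library totals and 3 with DESeq2. FZD4 stood at 31.2 and 29.5 CPM in Empty and 37.3 and 36.2 CPM with ERG (0.22 ± 0.08, adjusted p = 0.047), a call lost with DESeq2 (adjusted p = 0.066), with no filter and without any 1 of the 4 libraries. TCF7L2 rose from 26.1 and 23.5 CPM to 42.0 and 38.6 CPM (0.65 ± 0.09, adjusted p = 5.4e-06), and this call held under every setting. TLE1 rose from 17.3 and 16.8 CPM to 26.2 and 21.4 CPM (0.43 ± 0.11, adjusted p = 0.0036), and was not called without ERG replicate 1 (0.28, adjusted p = 0.17). DKK1 fell from 171 CPM in both libraries to 152 and 155 CPM (-0.21 ± 0.07, adjusted p = 0.024). AXIN2 stood at 11.6 and 13.8 CPM in Empty and 9.72 and 10.9 CPM with ERG (-0.36 ± 0.13, adjusted p = 0.033). The DKK1 and AXIN2 calls were lost with library totals (adjusted p = 0.058 and 0.072) and without GFP Empty replicate 2 or either ERG library, and AXIN2 was also not called by DESeq2 (adjusted p = 0.085). WNT5A, at 2.36 and 2.51 CPM in Empty and 2.32 and 2.59 CPM with ERG, overlapped. RNF43 and ZNRF3 were not called.

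Beside BRG1-K785R, 3 of 8 members fell with ERG and 5 were not called, beside 56.2% of all genes called. No member was called at 2-fold, beside 11.2% of all genes. With library totals 3 members rose and 2 fell, and the share of all calls that were higher went from 45.1% to 64.6%. AXIN2 fell from 15.2 and 16.6 CPM to 10.2 and 9.55 CPM (-0.87 ± 0.13, adjusted p = 6.7e-07). ZNRF3 fell from 24.1 and 23.1 CPM to 16.4 and 17.4 CPM (-0.67 ± 0.10, adjusted p = 1.2e-06). FZD4 stood at 39.9 and 42.4 CPM in Empty and 38.0 and 44.0 CPM with ERG, which overlapped. Its call (-0.19 ± 0.08, adjusted p = 0.046) was lost with library totals (-0.00), DESeq2 (adjusted p = 0.11), RLE scaling, only the compared groups, and without BRG1-K785R Empty replicate 2 or ERG replicate 1. DKK1 stood at 157 and 160 CPM in Empty and 195 and 188 CPM with ERG, and was called with library totals (0.27, adjusted p = 0.00057) but not with TMM scaling (0.08 ± 0.07, adjusted p = 0.34). RNF43 had 7 and 2 reads in Empty and 10 and 11 with ERG (1.32 ± 0.60, adjusted p = 0.060), and was called with library totals (adjusted p = 0.029), with only the compared groups and without Empty replicate 1. WNT5A (0.46 ± 0.24, adjusted p = 0.096) was called with library totals (adjusted p = 0.020) and without ERG replicate 2 (adjusted p = 0.029). The mutant's transcript differed between these groups, as given above, and its part in these values was not tested.

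Beside BRG1, 2 of 8 members rose and 1 fell with ERG, beside 45.4% of all genes called, and FZD4 and DKK1 were called at 2-fold, beside 7.72%. FZD4 stood at 34.8 and 35.6 CPM in Empty and 84.6 and 91.9 CPM with ERG, with a log2 change of 1.37 ± 0.08 (adjusted p = 1.9e-15). DKK1 stood at 155 and 154 CPM in Empty and 297 and 302 CPM with ERG, a change of 1.00 ± 0.07 (adjusted p = 1.9e-13). These ERG libraries were the highest of the 12 in SW13 for both genes. ZNRF3 fell from 17.5 and 15.9 CPM to 11.3 and 12.4 CPM (-0.45 ± 0.11, adjusted p = 0.00079). TCF7L2, at 34.5 and 36.5 CPM in Empty, stood at 35.2 and 37.9 CPM with ERG and overlapped, as did TLE1, at 23.7 and 21.5 CPM against 22.0 and 19.4 CPM. AXIN2 was 8.01 and 7.59 CPM in Empty and 6.75 and 6.58 CPM with ERG, not called (-0.18 ± 0.14, adjusted p = 0.30). WNT5A, at 2.60 and 3.13 CPM against 1.76 and 2.17 CPM, was not called (-0.50 ± 0.24, adjusted p = 0.086), and neither was RNF43.

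The ERG effects were then compared. Against GFP, the effect beside BRG1 was higher for DKK1 by 1.21 ± 0.10 (adjusted p = 5.8e-11) and for FZD4 by 1.15 ± 0.12 (adjusted p = 4.3e-09). It was lower for TCF7L2 by -0.57 ± 0.13 (adjusted p = 0.00086) and for TLE1 by -0.51 ± 0.15 (adjusted p = 0.0081). These 4 of 8 stood beside 37.8% of all genes called for that difference, and the 2 called at 2-fold (DKK1 and FZD4) beside 6.29%. With library totals the share of all calls that were higher went from 50.4% to 37.1%. The TLE1 difference was lost without GFP ERG replicate 1 (adjusted p = 0.12) or BRG1 Empty replicate 1 (adjusted p = 0.055). ZNRF3 was called with library totals (-0.43, adjusted p = 0.019) and not with TMM scaling (-0.33 ± 0.15, adjusted p = 0.071). ERG itself stood at 1859 and 2148 CPM beside BRG1, 1474 and 1587 beside GFP and 1609 and 1585 beside BRG1-K785R, and the part of that difference was not tested.

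Against BRG1-K785R, the effect beside BRG1 was higher for FZD4 by 1.56 ± 0.11 (adjusted p = 2.9e-12), for DKK1 by 0.92 ± 0.10 (adjusted p = 6.2e-09) and for AXIN2 by 0.69 ± 0.19 (adjusted p = 0.0034). It was lower for WNT5A by -0.96 ± 0.33 (adjusted p = 0.019). These 4 of 8 stood beside 46.2% of all genes, and FZD4, the only 1 called at 2-fold, beside 11.8%. With library totals the share of all calls that were higher went from 55.8% to 29.9%. The WNT5A difference was lost with DESeq2 (adjusted p = 0.073) and without any of 4 libraries: BRG1-K785R Empty 1, BRG1-K785R ERG 1, BRG1 Empty 2 or BRG1 ERG 1. The differences for FZD4 and DKK1 held under every setting in both comparisons, which share the BRG1 libraries.

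**Figure D3:**
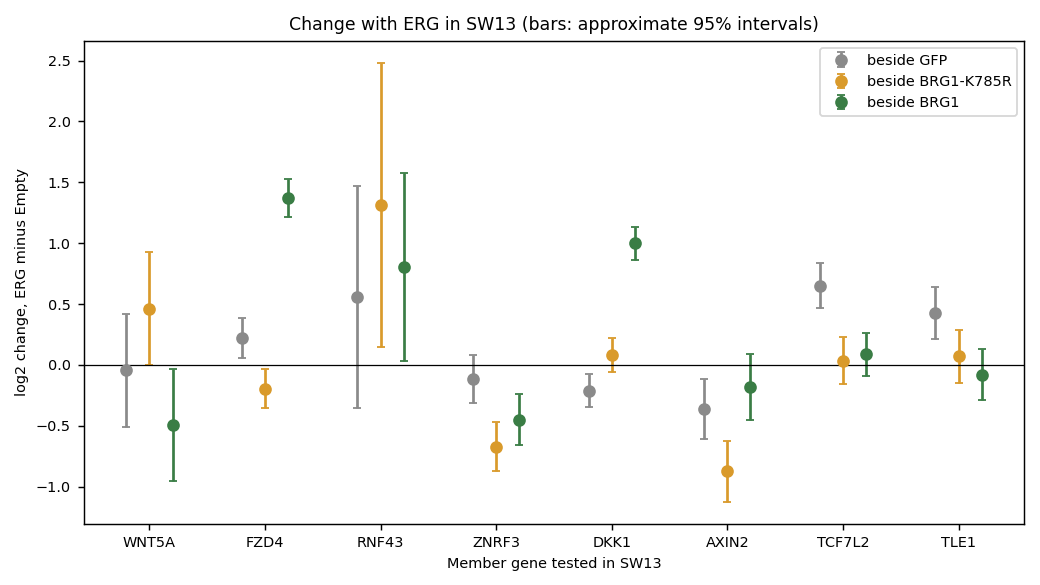
Log2 change with ERG in SW13 (vertical axis) beside GFP, BRG1-K785R or BRG1, for the 8 genes tested; points are edgeR estimates and bars approximate 95% intervals. FZD4 and DKK1 stand at 1.37 and 1.00 beside BRG1 and within 0.22 of 0 beside the other constructs, and TCF7L2 stands at 0.65 beside GFP against 0.04 and 0.09 beside the mutant and BRG1.

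Of the 68 other pathway genes tested in SW13, 9 rose and 4 fell with ERG beside GFP, 10 rose and 19 fell beside BRG1-K785R, and 11 rose and 17 fell beside BRG1. With library totals these were 13 and 2, 18 and 16, and 10 and 21. The called shares of the 68 with TMM scaling were 19.1%, 42.6% and 41.2%, beside 26.0%, 56.2% and 45.4% of all genes. RSPO1, a secreted R-spondin, stood at 26.1 ± 6.9 CPM in GFP Empty, 6.16 ± 0.31 in BRG1-K785R Empty and 37.3 ± 1.3 in BRG1 Empty. With ERG added, the RSPO1 level was 16.7 ± 0.36 CPM beside GFP, 65.2 ± 8.5 CPM beside BRG1-K785R and 62.1 ± 5.1 CPM beside BRG1. CD44 fell from 66.6 ± 3.9 to 12.4 ± 0.13 CPM with ERG beside BRG1, and CCND1, which encodes cyclin D1, from 323 ± 19 to 170 ± 5.8 CPM. Beside BRG1-K785R, 6 of the 10 destruction complex and transducer genes tested fell, and with library totals 5 fell and 2 rose. With TMM scaling 56.2% of all genes were called there, and 45.1% of those calls were higher. One of the 6 that fell was GSK3A, from 132 ± 4.7 to 87.1 ± 2.8 CPM. The antagonist SFRP4 rose from 24.2 ± 0.49 to 44.6 ± 1.1 CPM beside GFP, and CTNNBIP1, which binds beta-catenin, rose from 45.1 ± 0.25 to 72.6 ± 4.2 CPM beside BRG1. The differences of effects were higher for 8 and lower for 14 of the 68 against GFP, and higher for 12 and lower for 10 against BRG1-K785R. With library totals these were 6 and 21 against GFP, and 5 and 15 against BRG1-K785R. The called share of the 68 with TMM scaling was 32.4% for each difference, beside 37.8% and 46.2% of all genes.

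BRG1 and its mutant were also compared without ERG. AXIN2 fell with BRG1 and rose with BRG1-K785R, both against GFP, and ZNRF3 had the same signs. With BRG1 against GFP, 2 of 8 members rose and 3 fell, beside 62.4% of all genes called, and no member was called at 2-fold, beside 15.9%. With BRG1-K785R against GFP, 3 rose and 5 were not called, beside 58.7%, and no member was called at 2-fold, beside 13.4%. With BRG1 against the mutant, 2 were higher and 4 lower, beside 66.7%, and AXIN2 and RNF43 were called at 2-fold, beside 19.8%. With library totals 3 were higher and 3 lower, and the share of all calls that were higher went from 48.9% to 66.0%. For BRG1 against GFP that share went from 51.6% to 64.1%, with 3 members up and 2 down.

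AXIN2 stood at 11.6 and 13.8 CPM with GFP, 8.01 and 7.59 CPM with BRG1 and 15.2 and 16.6 CPM with BRG1-K785R, in 3 ranges that did not overlap. Its changes were -0.84 ± 0.13 with BRG1 (adjusted p = 1.4e-06) and 0.40 ± 0.12 with the mutant (adjusted p = 0.0051). The latter was lost without GFP Empty replicate 1 (0.26, adjusted p = 0.13). BRG1 was below the mutant by -1.24 ± 0.13 (adjusted p = 3.9e-10). ZNRF3 stood at 19.6 and 18.9 CPM with GFP, 17.5 and 15.9 CPM with BRG1 and 24.1 and 23.1 CPM with the mutant. The ZNRF3 fall with BRG1 (-0.34 ± 0.10, adjusted p = 0.0046) was lost with library totals (adjusted p = 0.075) and without BRG1 Empty replicate 2. Its rise with the mutant (0.38 ± 0.10, adjusted p = 0.0014) held, and BRG1 was below the mutant by -0.72 ± 0.10 (adjusted p = 1.6e-07).

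TCF7L2 rose from 26.1 and 23.5 CPM with GFP to 34.5 and 36.5 CPM with BRG1 (0.39 ± 0.09, adjusted p = 0.00057). With the mutant it stood at 23.5 and 26.0 CPM and overlapped GFP. BRG1 exceeded the mutant by 0.31 ± 0.09 (adjusted p = 0.0043), lost without BRG1-K785R Empty replicate 1 (adjusted p = 0.076). FZD4 was not called with BRG1 (0.08 ± 0.08, adjusted p = 0.40; with library totals 0.22, adjusted p = 0.030), whereas it rose with the mutant (0.52 ± 0.08, adjusted p = 2.7e-06) and was lower with BRG1 than with the mutant (-0.44 ± 0.08, adjusted p = 2.3e-05). DKK1 was lower with BRG1 than with GFP (-0.28 ± 0.07, adjusted p = 0.00081) and than with the mutant (-0.25 ± 0.07, adjusted p = 0.0019), the latter lost with library totals (-0.04). TLE1 rose with BRG1 (0.27 ± 0.11, adjusted p = 0.029), a call lost with DESeq2 and without either GFP Empty library or BRG1 Empty replicate 1. TLE1 was called between BRG1 and the mutant only with library totals (0.39, adjusted p = 0.0037). RNF43 had 14 and 16 reads with BRG1 and 7 and 2 with the mutant (1.43 ± 0.56, adjusted p = 0.025), lost with DESeq2 and without BRG1-K785R Empty replicate 2 or BRG1 Empty replicate 2. WNT5A stayed uncalled in all 3 comparisons.

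Of the other 68 genes, 27 rose and 15 fell with BRG1 against GFP, 29 rose and 8 fell with the mutant against GFP, and 18 were higher and 21 lower with BRG1 than with the mutant. With library totals these were 34 and 11, 27 and 12, and 26 and 14. The called shares of the 68 with TMM scaling were 61.8%, 54.4% and 57.4%, beside 62.4%, 58.7% and 66.7% of all genes. CD44, a surface protein and target gene, stood at 0.0588 ± 0.083 CPM with GFP, 0.734 ± 0.078 with the mutant and 66.6 ± 3.9 with BRG1. LGR4 rose from 9.24 ± 0.98 to 71.8 ± 0.52 CPM and DKK3 from 0.148 ± 0.043 to 10.9 ± 0.011 CPM with BRG1. The antagonist receptor KREMEN2 fell from 61.5 ± 3.9 to 26.1 ± 2.4 CPM with BRG1 and 16.1 ± 0.77 with the mutant. Of 10 destruction complex and transducer genes tested, 8 rose with the mutant, and 8 also with library totals. With TMM scaling 58.7% of all genes were called in that comparison, and 55.0% of those calls were higher. With BRG1 against the mutant 8 of these 10 genes were lower, but with library totals 4 were lower and 1 higher. There 66.7% of all genes were called with TMM scaling, and 48.9% of those calls were higher.

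**Figure D4:**
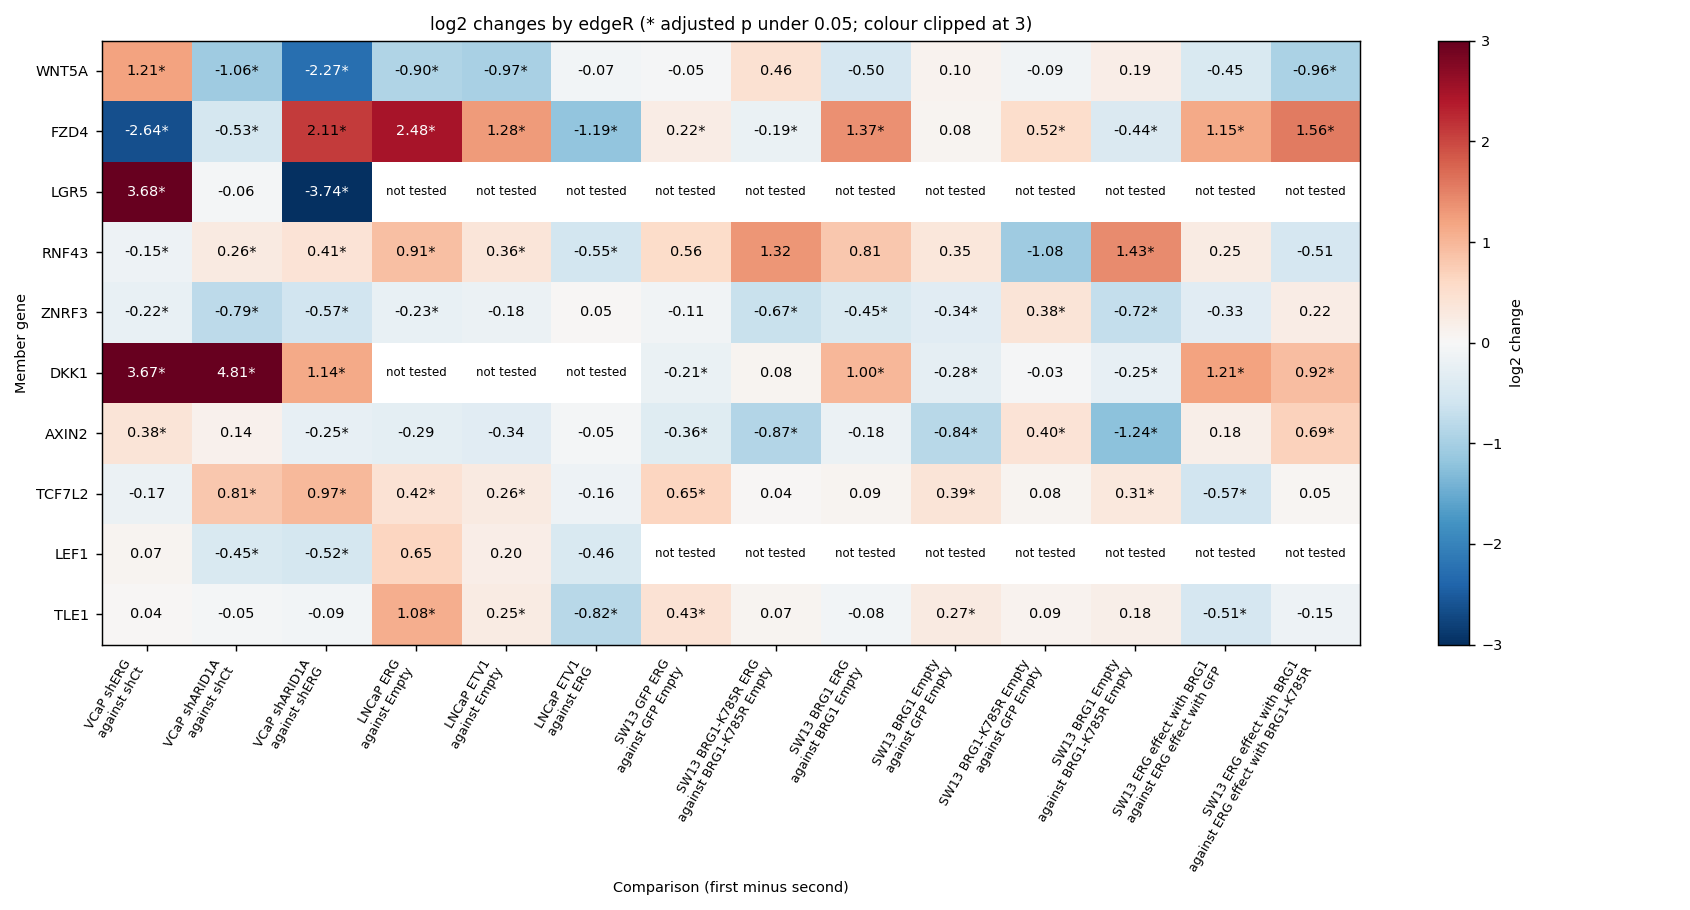
Log2 change of each gene (rows) in 12 comparisons of groups and 2 differences of ERG effects (columns), coloured from blue (lower) to red (higher), clipped at 3; stars mark adjusted p under 0.05. FZD4 is starred in every column but BRG1 against GFP, from -2.64 for shERG in VCaP to 2.48 for ERG in LNCaP, and LGR5 is tested in VCaP only.

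Across the 14 comparisons, 118 changes of members were tested, 70 were called and 48 of these were called in every setting run. The share of all genes called ran from 14.4% to 73.0% by comparison. Comparisons within a line share libraries, so these changes are not separate results. Patterns over the 12 group means, centred within each line, described which other genes resembled each member, as Pearson's r of log2(CPM + 1) among 14211 genes. FZD4 was most like PCAT19 (r = 0.954), SP6 (r = 0.922) and ARHGDIB (r = 0.915). DKK1 was most like NR3C1 (r = 0.951), FBXO34 (r = 0.947) and FLRT3 (r = 0.938), and WNT5A most like DDX55 (r = 0.973), RPGRIP1L (r = 0.968) and UBE3A (r = 0.959). RNF43 was most like GOLPH3L (r = 0.969), CAMK1D and STARD4, and ZNRF3 most like IPO5 (r = 0.983), PHOSPHO2-KLHL23 and KLHL23, of which the last 2 may share reads. AXIN2 was most like LLPH (r = 0.964), LZIC and DDB1, TCF7L2 most like TBC1D9 (r = 0.958), SPINT1 and DGKA, LEF1 most like PEX10 (r = 0.931), SLC25A52 and P2RY1, and TLE1 most like RBP5 (r = 0.948), TRIM43B and SH2D3C. These values share libraries, lines and depth and were picked as the highest of many, so they carry no test. For LGR5 no gene is named, since its pattern rested on 35 reads in 1 group. LEF1 in SW13 and DKK1 in LNCaP reached at most 0.226 and 0.214 CPM, so those groups added little to their patterns. The SW13 part of the RNF43 pattern rested on 2 to 25 reads per library. Between members, FZD4 and WNT5A had r = -0.722, RNF43 and TLE1 0.780, and TCF7L2 and ZNRF3 -0.781.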

How the data were processed

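Gene expression was measured by sequencing polyA RNA as 75 base single-end reads in 24 libraries, per the labels' protocols. The authors deposited for each library an RPKM value, a length and a count per gene. These deposited counts, whole numbers summing to 19754265 to 41996681 per library, were used for all tests. To compare genes, RPKM was computed from counts, totals and lengths, and it matched the deposited RPKM values. STAR 2.3.1 and hg19 are named per the submitters' processing notes; how reads were counted, with which annotation and whether by strand, is not given in the sources used here, so overlapping genes may share reads. The deposited gene lengths, the other column, were used only through RPKM. No column belonged to another sample and every row named a gene.

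Each line was fitted on its own in edgeR 4.0.16 (R 4.3.3) with TMM scaling, filterByExpr by group and all groups of the line in 1 fit, which left 16791 (VCaP), 16993 (LNCaP) and 17018 (SW13) genes. All 10 genes passed in VCaP and 8 passed in LNCaP and in SW13. There were 12 comparisons of groups and 2 differences of ERG effects. Printed CPM values use library totals, so they can differ in direction from TMM-scaled changes where these are small. Fits were tested on simulated data. Alternatives were RLE scaling, library totals, no filter, DESeq2 1.42.0, only the compared groups, a replicate block, each library left out in turn, TMM factors for levels and a pseudocount of 0.1 CPM in place of 1 for likeness.

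The 10 genes, the 84 other pathway genes in 8 lists and the marker lists were chosen with earlier results of these data known, so their counts are descriptions. Named genes were all 10 in every comparison and, of the other pathway genes, up to 3 called higher and 3 called lower by adjusted p, given a mean CPM of 1 or more in groups that did not overlap; the text gives part of these. For likeness the 3 genes with the highest r and a mean of at least 1 CPM were named. The chi-square per gene between the libraries of a group was 2.28 to 13.2, so no library was a copy of another. Intervals on read ratios cover counting error only. Intervals on log2 changes, also those drawn as bars in figures, are the estimate ± 1.96 SE. They are too narrow for the few residual degrees of freedom, and calls rest on the F test alone. Promoter windows came from RefSeq, and motifs were searched on both strands. Python 3.11.15 was used for tables (pandas 2.3.3, numpy 2.4.6) and plots (matplotlib 3.10.9).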

Additional observations from a re-analysis of the deposited data

Results flagged for a closer look

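The change with ERG in SW13 differed between constructs by the test of the difference itself (edgeR's quasi-likelihood test, Benjamini-Hochberg). Between BRG1 and GFP the log2 difference was 1.15 for FZD4 (adjusted p = 4.3e-09), 1.21 for DKK1 (5.8e-11), -0.57 for TCF7L2 (0.00086) and -0.51 for TLE1 (0.0081). Among other pathway genes it was -1.25 for BCL9L (1.5e-10), 0.38 for CSNK1A1 (0.0033), 0.92 for CTNNBIP1 (6.4e-08), -0.93 for KREMEN2 (1.3e-06), -0.73 for LRP5 (1.4e-06) and 1.47 for RSPO1 (1.2e-08). The TLE1 call was lost without GFP ERG replicate 1 or BRG1 Empty replicate 1.

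Between BRG1 and BRG1-K785R the log2 difference was -0.96 for WNT5A (adjusted p = 0.019), 1.56 for FZD4 (2.9e-12), 0.92 for DKK1 (6.2e-09) and 0.69 for AXIN2 (0.0034). Among other pathway genes it was -1.23 for CCND1 (6.2e-11), 0.57 for GSK3A (3.5e-05), -1.93 for KREMEN2 (1.5e-12), -2.43 for RSPO1 (7.6e-13), 0.99 for TCF7L1 (3.0e-05) and 0.87 for TLE3 (2.2e-08). For RSPO1 the difference had opposite signs against the GFP and the BRG1-K785R background. The WNT5A call was lost with DESeq2 and in 5 of 14 settings in all.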

How the results depend on the processing

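Of 118 member changes tested 70 were called, beside 14.4% to 73.0% of all genes by comparison. Of the 70 member calls, 22 were lost in at least 1 setting, as given beside each result. Where no cause is given, the cause was not tested. With library totals the uncalled or weakly called changes that changed sign were, for shERG against shCt, RNF43 (0.032) and TCF7L2 (0.017), for shARID1A against shCt TLE1 (0.018), for ERG beside GFP WNT5A (0.0088), for BRG1-K785R against GFP TCF7L2 (-0.00071), and for the difference of ERG effects against BRG1-K785R ZNRF3 (-0.010) and TCF7L2 (-0.19). Members called for ERG beside GFP were 3 with library totals and 3 with DESeq2, against 5; for ERG beside BRG1-K785R they were 5 with library totals, against 3.

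With 1 library left out the residual degrees of freedom were fewer and a lone library was assumed to vary like the other groups. Genes called then ranged from 2632 to 3873 for LNCaP ERG (5045 with all libraries), 1987 to 3261 for ETV1 (4439), 1003 to 1638 for ETV1 against ERG (2441) and 1743 to 3642 for ERG beside GFP in SW13 (4433). The lowest of these were without Empty replicate 1 (2632 with ERG, 1987 with ETV1), ETV1 replicate 2 (1003 against ERG) and GFP Empty replicate 2 (1743). Counts fell by more than 1.5 times also without Empty replicate 2 (2939 and 2706) and ETV1 replicate 2 (2601 against Empty), ERG replicate 1 (1471) and ETV1 replicate 1 (1529) for ETV1 against ERG, and either GFP ERG library (2199 and 2474). Members called ranged from 1 to 3 for LNCaP ETV1 and from 1 to 4 for ERG beside GFP. Changes that changed sign, none of them called with all libraries, ranged as follows. For shERG against shCt these were TLE1 from -0.054 to 0.17. For shARID1A against shCt these were LGR5 from -3.30 to 1.00 and TLE1 from -0.10 to 0.013. For shARID1A against shERG these were TLE1 from -0.22 to 0.0060. For ETV1 in LNCaP these were LEF1 from -0.41 to 0.62. For ETV1 against ERG these were WNT5A from -0.32 to 0.15, ZNRF3 from -0.034 to 0.13 and AXIN2 from -0.16 to 0.068. For ERG beside GFP these were WNT5A from -0.13 to 0.035. For ERG beside BRG1-K785R these were TCF7L2 from -0.11 to 0.16 and TLE1 from -0.022 to 0.15. For ERG beside BRG1 these were TLE1 from -0.17 to 0.013. For BRG1 against GFP these were WNT5A from -0.038 to 0.22. For BRG1-K785R against GFP these were DKK1 from -0.052 to 0.0030. For the difference of ERG effects against BRG1-K785R these were RNF43 from -1.50 to 0.0035 and TCF7L2 from -0.067 to 0.19.

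Under the replicate number as a block, genes called were 11049 for shERG, 10956 for shARID1A, 4338 for LNCaP ERG, 3737 for LNCaP ETV1, 1783 for ETV1 against ERG and 7677 for ERG beside BRG1, and 2 member calls were lost. Deviations of same-numbered libraries correlated at -0.05 to 0.03 in VCaP, -0.19 to -0.01 in LNCaP and -0.20 to 0.30 in SW13. Whether the replicate numbers pair the samples is not known from these values. RLE scaling lost 3 member calls, no filter 3 and DESeq2 11. TMM factors moved 39 of 120 group levels by more than 1 SD, by ratios of 0.932 to 1.10. Few reads limited the results for LGR5, for DKK1 in LNCaP and for LEF1 and RNF43 in SW13.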
